A study of Mus musculus with 6 samples.

Results

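Imprinted genes are expressed mainly from the copy inherited from either the mother or the father. The 36 imprinted genes described here were chosen by name as a list of known mouse imprinted genes, with earlier results of these data known. All 36 had a row among the 35976 genes of the count table. Of these, 29 passed the filter on low counts and were tested, beside 13761 tested genes in all. The remaining 7 were too low to test in these cells. They fall into the loci H19/Igf2, Igf2r/Airn, Kcnq1ot1, Peg3, Mest, Peg10/Sgce, Dlk1-Dio3, Snrpn-Ndn and Gnas, plus 8 genes that stand alone on the list.

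The cells were mouse chondrocytes from the articular cartilage of hind limbs at embryonic day 18.5, on a C57BL/6 x 129S4/SvJae background, expanded on plastic for 16 population doublings. All cultures received doxycycline at 2 µg/ml, which induced an H3.3 histone transgene. In the 3 H3K9M libraries (replicates 1, 3 and 5) lysine 9 of that histone was replaced by methionine, and the labels describe methylation of that residue as suppressed. In the 3 H3WT libraries (replicates 1, 2 and 4), the controls, the induced histone was wild-type H3.3, so the controls also carried an induced H3.3 transgene and were passaged to the same extent. The comparison asks which transcripts differ when methylation of H3 lysine 9 is suppressed during expansion. The labels do not say whether the replicates came from separate embryos, and p-values then measure only the spread between these libraries.

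An imprinted cluster is governed by an imprinting control region, a stretch of DNA that carries DNA methylation on only the maternal or the paternal copy. After fertilisation the zinc-finger proteins ZFP57 and ZFP445 bind the methylated copy and recruit TRIM28 and the H3 lysine 9 methyltransferase SETDB1, which help to keep the methylation in place. In embryonic cartilage many imprinted genes act on growth: Igf2 encodes a growth factor of the skeleton, Cdkn1c an inhibitor of the cell cycle needed for cartilage differentiation, and Igf2r the receptor that clears the IGF2 protein. The counts do not separate maternal from paternal RNA, so they give the total level of each gene and not its imprinting.

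Some sequences of the loci are shown because the ZFP57 core motif, TGCCGC (on the opposite strand it reads as GCGGCA), links imprinted DNA to H3 lysine 9 methylation. The stretches are promoters of members, and whether any of them lies within a control region was not examined. Each promoter stretch is the 250 bases before a RefSeq start site (GRCm38.p6), 5′ to 3′ on the strand of the gene, with copies of the motif in capitals. Mest is the member with the smallest p-value, and its stretch, at chr6:30737803-30738052 on the plus strand, holds 2 copies and 14 CpG dinucleotides. Zdbf2, at chr1:63200108-63200357 on the plus strand, holds the most copies of any member's window, 3, with 13 CpG dinucleotides. Meg3, at chr12:109540746-109540995 on the plus strand, holds 1 copy and 10 CpG dinucleotides. Rian, a member of the same locus that was higher in H3K9M, is shown for contrast, since its stretch at chr12:109603695-109603944 on the plus strand holds 0 copies and 0 CpG dinucleotides.
Mest: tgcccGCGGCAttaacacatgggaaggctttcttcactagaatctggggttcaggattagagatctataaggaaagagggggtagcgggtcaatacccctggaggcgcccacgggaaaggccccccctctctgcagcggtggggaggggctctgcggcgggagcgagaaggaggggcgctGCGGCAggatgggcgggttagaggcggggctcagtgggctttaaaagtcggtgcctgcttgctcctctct
Zdbf2: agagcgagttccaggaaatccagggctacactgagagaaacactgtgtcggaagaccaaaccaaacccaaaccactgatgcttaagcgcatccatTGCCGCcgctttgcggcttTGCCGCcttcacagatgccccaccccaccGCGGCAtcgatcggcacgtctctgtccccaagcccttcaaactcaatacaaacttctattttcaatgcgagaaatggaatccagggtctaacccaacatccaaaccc
Meg3: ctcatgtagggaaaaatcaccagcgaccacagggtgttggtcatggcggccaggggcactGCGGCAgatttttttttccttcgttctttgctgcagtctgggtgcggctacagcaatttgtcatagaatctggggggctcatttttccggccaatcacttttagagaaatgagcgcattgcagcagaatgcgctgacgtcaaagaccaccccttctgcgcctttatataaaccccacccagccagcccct
Rian: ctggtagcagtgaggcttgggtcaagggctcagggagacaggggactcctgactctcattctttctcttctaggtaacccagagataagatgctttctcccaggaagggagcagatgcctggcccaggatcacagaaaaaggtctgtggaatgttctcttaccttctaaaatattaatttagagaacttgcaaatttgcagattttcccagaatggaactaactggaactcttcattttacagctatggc

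Over the full 300-base windows (250 bases before and 50 after a start), 29 of the 36 members had a RefSeq window, and 10 of these 29 (34.5%) held the motif on either strand, against 3236 of 23923 genes with a window (13.5%). The windows of members were also richer in CpG, with a median of 14 per window against 8 in all windows. A match is a description of the letters and not of binding. Of the 4 members with an unadjusted p under 0.05 in the comparison below, Mest and Snrpn had a window with the motif, and Rian and Ndn had none.

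Mest and H19, which lead the results below, also host microRNAs, and these are shown because they are processed from the host transcripts. Mir335 lies in an intron of Mest and Mir675 in an exon of H19. Their mature sequences, from RefSeq with the seed (bases 2 to 8) in capitals, share no seed.
mmu-miR-335-5p: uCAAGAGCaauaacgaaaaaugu
mmu-miR-335-3p: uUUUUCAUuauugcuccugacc
mmu-miR-675-5p: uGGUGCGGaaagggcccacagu
mmu-miR-675-3p: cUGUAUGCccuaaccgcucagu
The polyadenylated RNA libraries do not measure mature microRNAs. The Mir675 row of the table read 176, 195 and 222 CPM (counts adjusted for library size) in the H3K9M libraries and 85.6, 819 and 83.6 CPM in the H3WT libraries, which follows H19 library by library and cannot be told apart from reads of the H19 transcript.

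Total counts ranged from 15113675 to 19606082 per library. No gene of the 13761 passed an adjusted p of 0.05 by edgeR (quasi-likelihood test, Benjamini-Hochberg adjusted; 0%), the smallest adjusted p being 0.0987, while 1677 (12.2%) had an unadjusted p under 0.05, 883 (6.42%) higher in H3K9M and 794 (5.77%) lower. Summed CPM of 10 chondrocyte markers was 7298 to 11394 in H3K9M and 7201 to 18871 in H3WT, highest in H3WT replicate 2, and all 10 markers had log2 fold changes below 0 (median -0.82). Without that library 8 of the 10 lay below 0 (median -0.26), and Acan and Matn3 turned to 0.79 and 0.58. Summed CPM of 11 skeletal muscle markers was 23.5 to 224 in H3K9M against 5.18 to 11.6 in H3WT, with Myf5 at 0 in every library. The muscle signal was therefore higher in every H3K9M library than in any H3WT library. Macrophage and blood markers summed to 6.16 to 15.2 CPM in H3K9M and 3.37 to 4.32 CPM in H3WT, with the defining markers Ptprc, Adgre1, Tyrobp and Hbb-bs at 0. Endothelial markers reached at most 0.825 CPM, with Cdh5 and Emcn at 0, and the sums of neural and glial (1.61 to 11.8 CPM, Sox10 at 0) and adipocyte markers (3.91 to 15.3 CPM) overlapped between the groups. The rows of the H3.3 genes H3f3a and H3f3b had log2 fold changes of -0.07 and 0.06, and may include reads of the induced transgene. These counts do not separate the mutant from the wild-type transgene, so they do not check the labels.

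No imprinted gene passed the test between H3K9M and H3WT. Of the 29 tested, 0 had an adjusted p under 0.05 by edgeR and 0 by limma-voom, and the smallest by edgeR was 0.170, for Mest. At an unadjusted p under 0.05 there were 4 of 29 (13.8%), near the 12.2% of all genes. Rian, Snrpn and Ndn were higher (3 of 29, 10.3%, against 6.42%) and Mest was lower (1 of 29, 3.45%, against 5.77%). The 2 groups of libraries did not overlap for 4 members higher in H3K9M (Rian, Mirg, Snrpn and Ndn, 13.8%, against 10.7% of all genes) and for 2 members lower (Slc22a18 and Mest, 6.90%, against 8.68%). Slc22a18 passed the filter on low counts through its H3WT libraries, so its separation supports nothing. The median log2 fold change of the 29 was -0.27, with 11 higher and 18 lower, beside -0.003 over all tested genes. Leaving out single libraries moved this median between -0.32 and 0.01, the latter without H3WT replicate 2. DESeq2 put 2 of 34 members, Mest and Ndn, past an adjusted p of 0.05, among 365 of 19994 genes. It returned no p-value for H19.

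**Figure D1:**
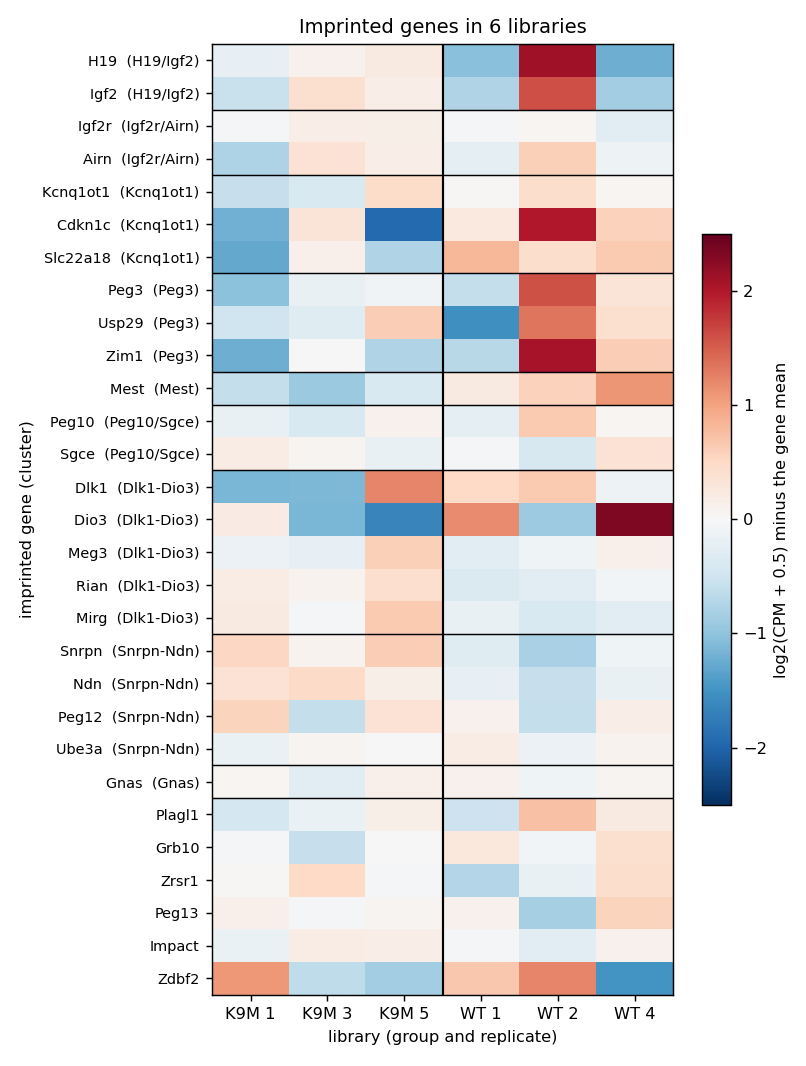
Log2(CPM + 0.5) of the 29 tested imprinted genes (rows, ordered by locus) in the 6 libraries (columns), as the difference from each gene's mean over the libraries. The H3WT replicate 2 column is the highest for 10 genes, led by H19, Zim1 and Cdkn1c, while Mest is low in the 3 H3K9M libraries and Rian, Mirg, Snrpn and Ndn are high there.

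The list spans a wide range of levels. On a per-length scale (RPKM, counts scaled for library size and transcript length, median of the 6 libraries), H19 stood highest at 665, followed by Mest at 418, Gnas at 320, Igf2 at 245 and Grb10 at 139. Plagl1 at 55.3, Igf2r at 37.0, Peg3 at 28.8 and Rian at 28.5 came next. H19 spanned 292 to 2958 over the libraries and Igf2 149 to 827, so the order of the leading 4 differed between libraries. The 36 genes together took 0.770% ± 0.095 (SD, n = 3) of counts in H3K9M and 1.07% ± 0.597 (SD, n = 3) in H3WT. In H3WT replicate 2 they took 1.75% (95% Wilson interval 1.74% to 1.76%, counting error only), of which H19 and Igf2 were 1.10% of all counts.

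H19 and Igf2 share a locus on chromosome 7 (H19 at chr7:142575530-142578146, a long noncoding RNA from the maternal copy, and Igf2 at chr7:142650768-142666816, from the paternal copy), where a control region between them lets enhancers act on either gene. H19 read 1357, 1685 and 1808 CPM in H3K9M replicates 1, 3 and 5, and 758, 6762 and 668 CPM in H3WT replicates 1, 2 and 4. H3WT replicate 2 stood 4.98 times above the median of the other 5 libraries, while the other H3WT libraries were the lowest of the 6. In bulk RNA, fewer cells of a type and less RNA per cell cannot be told apart. Igf2 read 879, 1687 and 1438 CPM in H3K9M and 767, 3903 and 705 CPM in H3WT, with the same library on top and the same pair at the bottom.

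The sign of both fold changes (fitted log2 differences, H3K9M minus H3WT) depended on that library. With all 6 libraries the log2 fold change of H19 was -0.76 (SE 0.91, edgeR adjusted p = 0.798), but 1.19 (SE 0.19, adjusted p = 0.0465) in the fit that left out H3WT replicate 2. H19 was the only member past the threshold there (1 of 30), among 91 of 14246 genes. For Igf2 the values were -0.42 (SE 0.72, adjusted p = 0.867) with it and 0.87 (SE 0.27, adjusted p = 0.175) without it. The 2 genes moved together over the libraries, with Pearson's r of 0.970 on log2 CPM (exact permutation p = 0.00417, adjusted over 10 pairs 0.0417, n = 6) and Spearman's rho of 0.943 (exact p = 0.0167, adjusted 0.167). Leaving out H3WT replicates 2 and 4, the libraries farthest from the median of H19, r was 0.850. The log2 ratio of H19 to Igf2 was 0.32 ± 0.31 (SD, n = 3) in H3K9M and 0.23 ± 0.49 (SD, n = 3) in H3WT, a difference of 0.09 (exact permutation p = 0.8, two-sided, where 3 libraries against 3 allow no p below 0.1), and its sign turned when single libraries were left out. Total H19 and Igf2 RNA thus varied in parallel, and a difference in their balance was not detectable with 3 libraries a group.

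**Figure D2:**
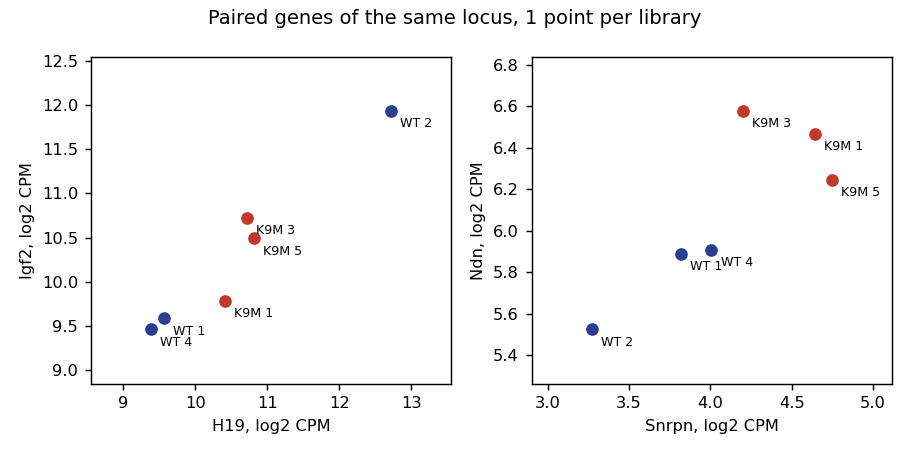
Log2 CPM of Igf2 against H19 (left) and of Ndn against Snrpn (right), 1 point per library, H3K9M in red and H3WT in blue. H3WT replicate 2 lies apart at the top right for H19 and Igf2 (6762 and 3903 CPM), while the 3 H3K9M points lie above all H3WT points for Ndn.

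Igf2r, on chromosome 17 (chr17:12682406-12769706) and expressed from the maternal copy in most mouse tissues, encodes the receptor that carries IGF2 to lysosomes. It read 315, 368 and 363 CPM in H3K9M and 318, 340.0 and 273 CPM in H3WT. These ranges overlapped, and the fitted log2 difference was 0.17 (SE 0.13, edgeR adjusted p = 0.649). Airn, the paternal antisense RNA that silences Igf2r in cis, was low, between 1.14 and 3.68 CPM, and the fitted log2 difference was -0.15 (SE 0.60, adjusted p = 0.95). The log2 ratio of Igf2r to Igf2 was -1.89 ± 0.37 (SD, n = 3) in H3K9M and -2.05 ± 1.27 (SD, n = 3) in H3WT (exact permutation p = 1), and without H3WT replicate 2 the difference turned from 0.17 to -0.57.

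In the Kcnq1ot1 locus on chromosome 7, the paternal noncoding RNA Kcnq1ot1 silences a group of maternally expressed genes. All 3 tested members had values below 0 and none an unadjusted p under 0.05. Of these, Slc22a18 passed the filter on low counts through its H3WT libraries, so its sign supports nothing. Cdkn1c (chr7:143458339-143461059), the cell cycle inhibitor p57, read 6.97, 21.1 and 3.98 CPM in H3K9M and 19.99, 69.1 and 25.3 CPM in H3WT. H3WT replicate 2 was the highest and H3K9M replicate 3 reached the H3WT range, so the groups overlapped (log2 difference -1.83, SE 0.76, edgeR adjusted p = 0.411, and -1.07 without H3WT replicate 2). Slc22a18, an organic cation transporter family member, was near the detection limit, with 0.201, 1.35 and 0.510 CPM in H3K9M and 2.53, 1.82 and 2.18 CPM in H3WT. These were 3, 28 and 10 counts against 45, 35 and 37. Its groups did not overlap, and its log2 fold change was -1.63 (SE 0.84, adjusted p = 0.468). Kcnq1ot1 itself read 6.03 to 12.9 CPM, with its highest values, 12.9 and 12.8 CPM, in H3K9M replicate 5 and H3WT replicate 2 (log2 difference -0.30, SE 0.34, adjusted p = 0.782). Its transcript holds stretches similar to 121 other genes and its reads may be shared with them. Phlda2, a growth-restricting gene of the placenta, and Ascl2, a transcription factor of the trophoblast, were not tested, with at most 11 and 16 counts in any library.

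The Peg3 locus, also on chromosome 7, gave its highest values in H3WT replicate 2 for all 3 members. Peg3 (chr7:6703892-6730462), a zinc-finger protein from the paternal copy, read 134, 241 and 259 CPM in H3K9M and 182, 827 and 344 CPM in H3WT. Its log2 fold change was -1.09 (SE 0.57, edgeR adjusted p = 0.491), and -0.30 without H3WT replicate 2. Zim1, its maternally expressed neighbour, read 7.57, 18.0 and 10.6 CPM in H3K9M and 11.0, 77.2 and 28.3 CPM in H3WT (log2 difference -1.68, SE 0.72, adjusted p = 0.421, and -0.69 without that library). Usp29, a deubiquitinase gene that starts beside Peg3 on the other strand, read between 0 and 3.17 CPM and its fold change turned sign without H3WT replicate 2, from -0.63 to 0.49. Without that library the adjusted p-values were 0.749 for Peg3, 0.537 for Zim1 and 0.913 for Usp29.

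H3WT replicate 2 was the highest library for 10 of the 29 members (34.5%), against 19.5% of all tested genes. It was at least 2-fold above the next library for 5 of 29 (17.2%: H19, Igf2, Cdkn1c, Peg3 and Zim1), against 1.22% of all genes. It was also the lowest library for 7 members (24.1%, against 21.0% of all genes), so the members did not all follow 1 direction there. Of the other libraries, H3K9M replicate 5 was the highest for 7 members (24.1%, against 11.7% of all genes) and H3K9M replicate 1 the lowest for 7 (24.1%, against 14.9%). The members were chosen with earlier results of these data known, so these shares are a description only. Plagl1 (chr10:13090832-13131694), a zinc-finger regulator of imprinted genes, was highest in H3WT replicate 2, reading 216, 260.4 and 322 CPM in H3K9M and 204, 487 and 341 CPM in H3WT. Its log2 fold change was -0.37 (SE 0.31, edgeR adjusted p = 0.671), and -0.02 without H3WT replicate 2. The chondrocyte marker sum of H3WT replicate 2, 18871 CPM, was likewise the highest of the 6 libraries, and its part in these values was not tested.

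**Figure D3:**
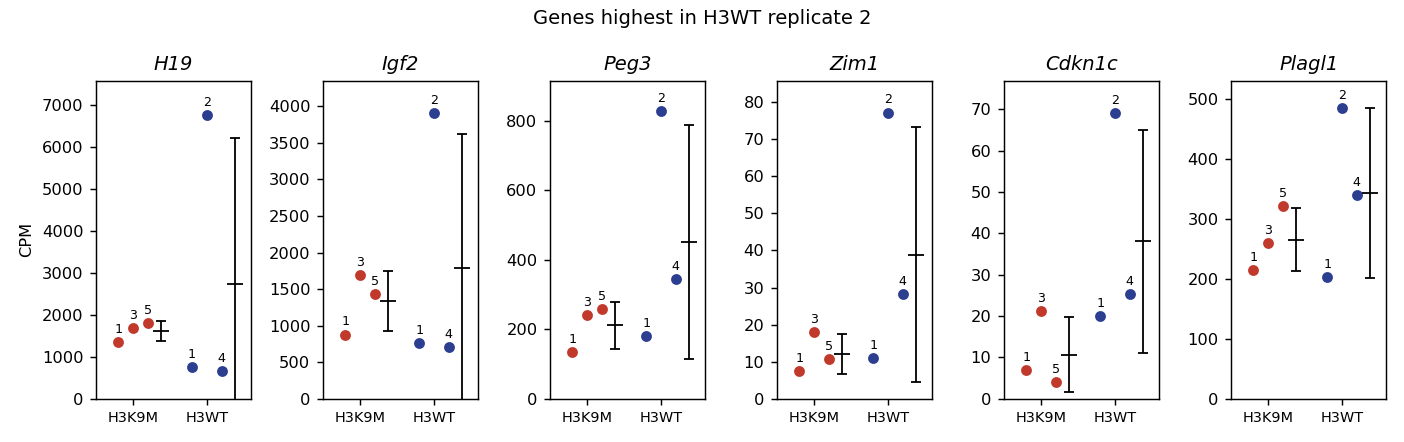
CPM of 6 imprinted genes in each library, numbered by replicate, H3K9M in red and H3WT in blue. The horizontal tick and bar beside each group are the mean and SD (n = 3), drawn from 0 upwards only. H3WT replicate 2 is the top point in every panel, for H19 at 6762 CPM against 668 to 1808 CPM in the other 5 libraries.

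Mest (chr6:30733506-30748466), a paternally expressed gene of mesodermal tissue that encodes a hydrolase-like protein, was the member with the smallest p-value. It read 761, 602 and 879.9 CPM in H3K9M and 1349, 1708 and 2464 CPM in H3WT. Every H3WT library was above every H3K9M library, and H3WT replicate 4 was the highest. Mean CPM was 748 ± 139 (SD, n = 3) in H3K9M against 1840.3 ± 569 (SD, n = 3) in H3WT, 2.46-fold lower, and the fitted log2 difference was -1.30 (SE 0.25, edgeR adjusted p = 0.170). DESeq2 gave an adjusted p of 2.14e-05, while over the 13 alternative fits the log2 fold change stayed between -1.48 and -1.03. Copg2, which overlaps the end of Mest on the opposite strand and shares 912 bases with it, read 44.3, 48.2 and 45.0 CPM in H3K9M and 36.6, 25.3 and 59.6 CPM in H3WT, and the fitted log2 difference was 0.18 (SE 0.28, adjusted p = 0.852).

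The Peg10/Sgce pair, elsewhere on chromosome 6, is paternally expressed from a shared promoter region. Peg10, a gene derived from a retrotransposon and needed in the placenta, read 69.7, 60.3 and 84.6 CPM in H3K9M and 67.3, 124 and 81.2 CPM in H3WT (log2 difference -0.34, SE 0.24, edgeR adjusted p = 0.603, and -0.04 without H3WT replicate 2). Sgce, a sarcoglycan of the cell membrane, read 41.4 to 53.8 CPM in H3K9M and 35.8 to 61.1 CPM in H3WT (log2 difference 0.02, SE 0.21, adjusted p = 0.985). The ranges of both genes overlapped between the groups, and H3WT replicate 2 was the highest library for Peg10 and the lowest for Sgce.

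In the Dlk1-Dio3 locus on chromosome 12, the maternal noncoding RNAs Meg3, Rian and Mirg read higher in H3K9M on average and the paternal genes Dlk1 and Dio3 lower, and of the 5 only Rian had an unadjusted p under 0.05. The skeletal muscle marker sum was likewise higher in every H3K9M library, at 147, 224 and 23.5 CPM in replicates 1, 3 and 5. Its part in the values of Rian, Mirg, Snrpn and Ndn was not tested. Rian (chr12:109603945-109661716), the host of small nucleolar RNAs, read 263, 243 and 306 CPM in H3K9M and 179, 189.9 and 218 CPM in H3WT. The groups did not overlap, with means of 271 ± 32.5 (SD, n = 3) and 196 ± 20.3 (SD, n = 3) and a log2 difference of 0.47 (SE 0.14, edgeR adjusted p = 0.269). Mirg, a host of microRNAs, read 11.1, 9.23 and 15.1 CPM in H3K9M and 8.25, 7.11 and 7.78 CPM in H3WT, also without overlap (log2 difference 0.62, SE 0.27, adjusted p = 0.411). Meg3 (chr12:109540996-109571729), the noncoding RNA at the head of that group, read 335, 324 and 566 CPM in H3K9M and 306, 348 and 409 CPM in H3WT. The Meg3 groups overlapped, its log2 fold change was 0.20 (SE 0.23, adjusted p = 0.779), and without H3K9M replicate 5 it was -0.10.

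Dlk1 (chr12:109452485-109463336), a membrane protein of the Delta-like family that holds back differentiation of progenitor cells, read 3.68, 3.72 and 21.1 CPM in H3K9M and 12.5, 14.1 and 7.89 CPM in H3WT. H3K9M replicate 5 was the highest of all and the other H3K9M libraries the lowest. The Dlk1 log2 fold change was -0.27 (SE 0.70, edgeR adjusted p = 0.915), and -1.62 (adjusted p = 0.343) without H3K9M replicate 5. Dio3, the deiodinase that inactivates thyroid hormone, read 42.3, 16.3 and 11.3 CPM in H3K9M and 83.9, 19.2 and 187 CPM in H3WT, with H3WT replicate 2 inside the H3K9M range (log2 difference -2.06, SE 0.88, adjusted p = 0.421). The Dio3 difference was -1.15 without H3WT replicate 4 and -2.80 without H3K9M replicate 1. The log2 ratio of Meg3 to Dlk1 was 5.89 ± 0.99 (SD, n = 3) in H3K9M and 4.97 ± 0.62 (SD, n = 3) in H3WT, a difference of 0.92 (exact permutation p = 0.2). Rtl1, a retrotransposon-derived gene of the same locus, had 0 counts in every library.

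The Snrpn-Ndn locus on chromosome 7, the mouse counterpart of the Prader-Willi region, held the other members that read higher in H3K9M without overlap. Snrpn (chr7:59982495-60450177), a paternally expressed component of the splicing machinery, read 24.9, 18.3 and 26.8 CPM in H3K9M and 14.0, 9.55 and 16.0 CPM in H3WT. The Snrpn means were 23.3 ± 4.48 (SD, n = 3) and 13.2 ± 3.29 (SD, n = 3), and the fitted log2 difference was 0.83 (SE 0.26, edgeR adjusted p = 0.280). Ndn (chr7:62348277-62349928), a paternally expressed growth suppressor of the MAGE family, read 88.3, 95.4 and 75.8 CPM in H3K9M and 59.2, 46.0 and 60.0 CPM in H3WT. Means of Ndn were 86.5 ± 9.93 (SD, n = 3) and 55.1 ± 7.90 (SD, n = 3), 1.57-fold higher, and the fitted log2 difference was 0.65 (SE 0.15, edgeR adjusted p = 0.212, and 0.0492 with DESeq2). H3WT replicate 2 was the lowest library for both genes, and without it the log2 fold changes were 0.65 for Snrpn and 0.55 for Ndn.

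Snrpn had exactly the 6 counts of Snurf, a gene that shares its exons, so the 2 rows are the same reads, and it is 95.3% identical to Gm5802 over 700 bases. The levels of Snrpn and Ndn over the libraries gave Pearson's r of 0.819 (exact permutation p = 0.05, adjusted over 10 pairs 0.25, n = 6), Spearman's rho of 0.771 (exact p = 0.103, adjusted 0.343), and r of 0.764 without H3K9M replicate 5 and H3WT replicate 2. Peg12, an intronless gene of the locus, read 4.20 to 9.98 CPM in H3K9M and 4.20 to 7.54 CPM in H3WT (log2 difference 0.27, SE 0.41, edgeR adjusted p = 0.840). Ube3a, a ubiquitin ligase whose imprinting is known from neurons, read 67.9 to 80.5 CPM and 68.9 to 87.1 CPM (log2 difference -0.09, SE 0.14, adjusted p = 0.852). Mkrn3 and Magel2, a ubiquitin ligase and a ligase regulator from the paternal copy, reached at most 24 counts and 1 count. So of the locus's 6 members Snrpn and Ndn stood apart between the groups, and Peg12 and Ube3a overlapped.

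**Figure D4:**
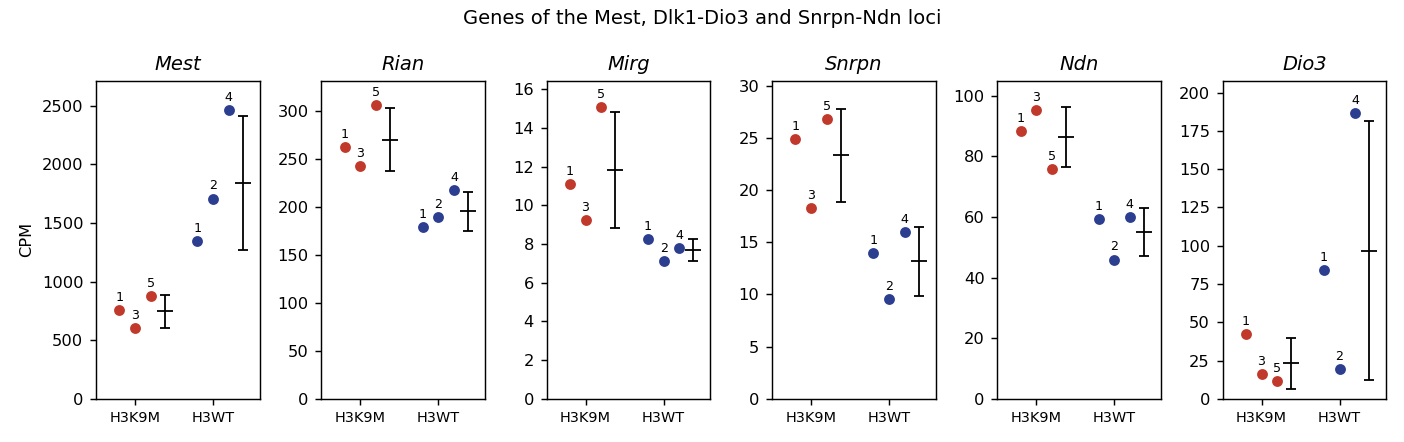
CPM of Mest, Rian, Mirg, Snrpn, Ndn and Dio3 in each library, numbered by replicate, H3K9M in red and H3WT in blue, with tick and bar for the mean and SD (n = 3). In the Mest panel every H3K9M point lies below every H3WT point, in the next 4 panels every H3K9M point lies above, and the Dio3 groups overlap at H3WT replicate 2.

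Of the 10 pairwise correlations run within or across loci, H19 with Igf2 alone had an adjusted p under 0.05, and only by Pearson's r. Peg3 and Usp29 gave r of 0.706 (exact permutation p = 0.132, adjusted 0.281) and Spearman's rho of 0.886 (exact p = 0.0333, adjusted 0.167). Without H3K9M replicate 1 and H3WT replicate 2 their r was 0.855. Cdkn1c and Slc22a18 gave r of 0.764 (exact p = 0.0889, adjusted 0.281) and rho of 0.543 (exact p = 0.297, adjusted 0.395). Without H3K9M replicate 5 and H3WT replicate 2 their r was 0.955. Peg10 and Sgce gave a negative r, -0.626 (exact p = 0.174, adjusted 0.289), which was -0.057 without H3K9M replicate 3 and H3WT replicate 2. Igf2r with Airn, Meg3 with Dlk1 and Meg3 with Rian gave r of 0.516, 0.572 and 0.676 (exact p = 0.301, 0.226 and 0.140, adjusted 0.377, 0.323 and 0.281). Without the libraries farthest from the median of the first gene, r was 0.700, -0.026 and 0.251. Across loci, H19 with Meg3 gave r of 0.028 (exact p = 0.947) and H19 with Dlk1 0.237 (exact p = 0.678). Without H3WT replicates 2 and 4 these were 0.600 and -0.144.

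Gnas and Grb10, which are imprinted in only some tissues or transcripts, were abundant. Gnas (chr2:174284320-174346744), the stimulatory G protein alpha subunit, read 1252, 1009.8 and 1309 CPM in H3K9M and 1300.3, 1124 and 1273 CPM in H3WT, the tightest of the abundant members (log2 difference -0.05, SE 0.15, edgeR adjusted p = 0.930). Gene-level counts merge its differently imprinted transcripts. Grb10 (chr11:11930499-12037428), an adaptor that restrains insulin and IGF receptor signalling, read 692, 476 and 712 CPM in H3K9M and 846, 679 and 936 CPM in H3WT. Of the H3WT libraries, replicate 2 alone lay within the H3K9M range for Grb10, and its log2 fold change was -0.39 (SE 0.20, adjusted p = 0.459).

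Of the members that stand alone, Impact, a translation regulator on chromosome 18, read 77.1 to 98.0 CPM in H3K9M and 71.1 to 92.8 CPM in H3WT, and the fitted log2 difference was 0.13 (SE 0.15, edgeR adjusted p = 0.776). Zrsr1, a splicing factor gene inside an intron of Commd1, read 19.4 to 28.7 CPM and 12.0 to 27.7 CPM (log2 difference 0.26, SE 0.32, adjusted p = 0.792). Leaving out single libraries moved the Zrsr1 value between 0.013, without H3WT replicate 1, and 0.63, without H3WT replicate 4. Peg13, a noncoding RNA, read 25.6 to 28.4 CPM in H3K9M and 14.4 to 38.2 CPM in H3WT (log2 difference 0.01, SE 0.32, adjusted p = 0.995). Zdbf2 (chr1:63200358-63314576), whose window above holds the most motif copies, was low, with 3.22, 0.628 and 0.459 CPM in H3K9M and 2.30, 3.58 and 0.118 CPM in H3WT (log2 difference -0.49, SE 1.17, adjusted p = 0.904). Its groups overlapped throughout. Nnat and Nap1l5, which are expressed mainly in brain, reached at most 15 and 11 counts. The exons of several members overlap another gene on the opposite strand, and without a stated strand setting reads of such pairs cannot be told apart. Among them are Igf2 with Igf2os (at most 12.9 CPM), Mest with Copg2, Ube3a with Snhg14 (at most 1.84 CPM) and Gnas with Nespas (at most 1.40 CPM). Zrsr1 overlaps Commd1 (22.3 to 34.2 CPM, more than Zrsr1 itself in most libraries) and Kcnq1ot1 overlaps Kcnq1 (at most 0.467 CPM). Others are Usp29 with Zim3, Meg3 with Gm26906 and Cdkn1c with Gm44732, sharing 2526, 805 and 422 bases. Igf2 also shares 3598 bases with Gm49394 on the same strand.

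**Figure D5:**
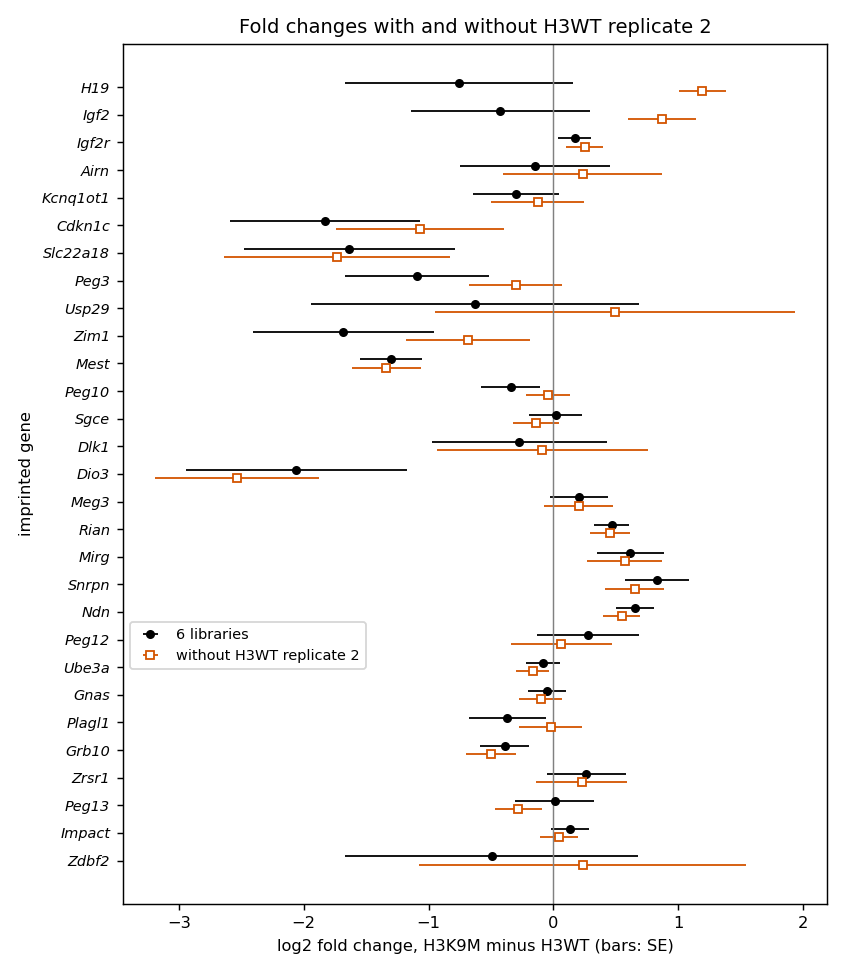
Log2 fold changes (H3K9M minus H3WT) of the 29 tested imprinted genes with their standard errors, from all 6 libraries (black circles) and without H3WT replicate 2 (open orange squares). H19 and Igf2 cross from -0.76 and -0.42 to 1.19 and 0.87, while Mest, Rian, Snrpn and Ndn stay on the same side of 0.

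By the parental copy that is usually expressed, 4 of 8 tested maternally expressed members were higher and 4 lower (median log2 fold change -0.29), and 7 of 18 paternally expressed members were higher and 11 lower (median -0.28). Neither class was on 1 side, and the medians of both lay near that of all members.

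Of 35 listed factors linked to imprints, not all of which maintain them, 29 were tested. The remaining 6 were too low to test: Ctcfl, Zfp42 and Padi6 had 0 counts in every library, and Dppa3, Dnmt3l and Nlrp2 had at most 5, 13 and 14 counts. Of the 29 there were 11 higher and 18 lower (median log2 fold change -0.09) and none past an adjusted p of 0.05 by edgeR. At an unadjusted p under 0.05, 3 of 29 (10.3%) were lower and 0 higher, near the 12.2% of all genes in either direction (5.77% lower). These were Ehmt1 and Ehmt2, the paired methyltransferases of H3 lysine 9 (log2 fold changes -0.47, SE 0.12, and -0.34, SE 0.11), and Uhrf1, which brings DNMT1 to newly copied DNA (-0.53, SE 0.20, adjusted p = 0.364). Ehmt1 read 59.9, 65.7 and 56.1 CPM in H3K9M and 87.7, 84.3 and 79.5 CPM in H3WT, without overlap. Zfp57 was low, with 4.35, 6.67 and 4.18 CPM in H3K9M and 6.40, 7.37 and 8.54 CPM in H3WT (log2 difference -0.55, SE 0.33, adjusted p = 0.528), and its groups overlapped. Zfp445 had a log2 difference of -0.10 (SE 0.15, adjusted p = 0.841), and Trim28 and Dnmt1 had -0.23 (SE 0.15, adjusted p = 0.563) and -0.38 (SE 0.20, adjusted p = 0.471). Summed CPM of the 6 proliferation markers was 677 to 1208 in H3K9M and 821 to 1334 in H3WT, overlapping ranges, and its part in the Uhrf1 and Dnmt1 values was not tested.

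The pathway through which IGF2 acts was described by 19 listed genes, of which 17 were tested, with 5 higher and 12 lower (median log2 fold change -0.44, and -0.67 without H3WT replicate 2) and none past an adjusted p of 0.05 by edgeR. At an unadjusted p under 0.05 there were 6 of 17 (35.3%), 3 in each direction, against 12.2% of all genes. The list was chosen with earlier results of these data known, so this share is a description only. Higher at an unadjusted p under 0.05 were Htra1, a protease that cuts IGF-binding proteins and matrix (log2 difference 0.94, SE 0.17, edgeR adjusted p = 0.170), Igfbp7 (0.66, SE 0.20) and Igfbp6, a binding protein that prefers IGF2 (0.79, SE 0.31). Lower were Pappa, a protease that frees IGF from its binding proteins (-0.99, SE 0.26, adjusted p = 0.239), Irs1, which relays the receptor signal (-1.12, SE 0.35), and Igfbp5 (-1.14, SE 0.45). Htra1 read 463, 351 and 309.5 CPM in H3K9M and 175, 197 and 212 CPM in H3WT, every H3K9M library above every H3WT library. Irs1 read 97.0, 81.2 and 81.4 CPM in H3K9M and 193, 97.0 and 276 CPM in H3WT, with H3WT replicate 2 beside the H3K9M libraries and not with the other H3WT libraries. Without that library the log2 difference of Irs1 was -1.43 (edgeR adjusted p = 0.0291). The receptor gene Igf1r had a log2 difference of -0.44 (SE 0.25, adjusted p = 0.512).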

How the data were processed

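The deposited table gives raw counts per gene symbol, not normalized, 1 column per library, and the authors made it with HISAT2, featureCounts and build mm10, per the submitters' processing notes. Annotation, strand setting and versions are not given in the sources used here. Every row carried a gene name. The members and lists were chosen with earlier results of these data known. Members with an unadjusted p under 0.05 and leading members of each locus were given in full, and of the other lists the members with the smallest p.

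Counts were tested over all 13761 genes kept by filterByExpr in edgeR 4.0.16 (R 4.3.3; TMM scaling, robust quasi-likelihood test, genotype as the only term), with Benjamini-Hochberg adjustment and a threshold of 0.05. The SE is the size of the log2 fold change divided by the square root of F. CPM are TMM-scaled. Ratios within loci added 0.5 to each count. Total counts of 15113675 to 19606082 per library set the counting precision. Alternatives were DESeq2 1.42.0, limma-voom (limma 3.58.1), other scalings and filters, no robust estimation, and leaving out each library. The fit was tested on simulated data. Coordinates and promoter windows come from RefSeq GRCm38.p6, and transcript lengths, overlaps and similar transcripts from GENCODE. Windows were not used for H19, Cdkn1c, Peg10, Sgce, Rtl1, Peg13 and Impact.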

Additional observations from a re-analysis of the deposited data

How the results depend on the processing

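Mest, Rian, Snrpn and Ndn kept their direction and an unadjusted p under 0.05 in all 13 alternative fits, while their adjusted p stayed above 0.05 except with DESeq2 for Mest and Ndn. Genes past the threshold numbered 0 of 13761 with edgeR, 365 of 19994 with DESeq2 and 36 of 19994 with every gene with a count. They numbered 1 at an adjusted p under 0.10, and 0 to 91 when single libraries were left out (91 of 14246 without H3WT replicate 2). Imprinted genes past it numbered 2 of 34 with DESeq2 and 0 to 1 over the left-out libraries (H19, 1 of 30, without H3WT replicate 2). Imprinted genes at an unadjusted p under 0.05 numbered 7 of 34 with DESeq2 (beside 9.61% of all genes) and 7 of 29 without robust estimation (12.3%). With 1 H3K9M library left out they numbered 5 of 30 without replicate 1 (8.48%), 7 of 31 without replicate 3 (9.75%) and 5 of 31 without replicate 5 (10.5%). With 1 H3WT library left out they numbered 8 of 32 without replicate 1 (8.78%), 8 of 30 without replicate 2 (17.1%) and 4 of 32 without replicate 4 (9.14%). The members' median log2 fold change was -0.055 with limma-voom, -0.12 with at least 10 counts in every library and -0.32 to 0.011 over the left-out libraries, and the cause was not tested.

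Of 374 alternative values of single members 19 turned sign, in 10 members, and 19 members kept their sign throughout. Over the left-out libraries the log2 fold change ran from -1.22 to 1.19 for H19, -0.80 to 0.87 for Igf2, -0.42 to 0.23 for Airn, -1.31 to 0.49 for Usp29, -0.14 to 0.24 for Sgce, -1.62 to 0.12 for Dlk1, -0.10 to 0.36 for Meg3, -0.11 to 0.066 for Gnas, -0.28 to 0.35 for Peg13 and -1.86 to 0.23 for Zdbf2. With limma-voom H19 was 0.10, Igf2 0.0045 and Usp29 0.82, and with library size alone Gnas was 0.0047. The difference in log2 ratio ran from -0.069 to 0.37 for H19 to Igf2, from 0.62 to 1.49 (without H3K9M replicate 5) for Meg3 to Dlk1 and from -0.57 to 0.56 for Igf2r to Igf2. No paired analysis was possible because the groups share only 1 replicate number. Rtl1, with 0 counts, entered no fit, and 6 other members were left out by the filter on low counts.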

Other observations

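Genes beside the imprinted loci, some of them imprinted in placenta only, were described by a list of 49 neighbours and hosts, of which 48 were in the table and 37 were tested. Of these, 24 had log2 fold changes above 0 and 13 below (median 0.18), and none had an adjusted p under 0.05 by edgeR. At an unadjusted p under 0.05, 6 were higher in H3K9M and 1 lower (18.9% of 37), beside 12.2% of all genes in either direction. This list was also chosen with earlier results of these data known, so the share is a description only. Pon2, a lactonase gene near Peg10, read 59.2, 53.8 and 60.2 CPM in H3K9M and 28.8, 38.4 and 33.0 CPM in H3WT, with no overlap (log2 fold change 0.79, SE 0.15, edgeR adjusted p = 0.171), and Ppp1r9a from the same stretch had 1.53 (SE 0.35, adjusted p = 0.212). Peg10 and Sgce, the members beside them, had -0.34 and 0.02. At the far end of the Kcnq1ot1 locus the decoy receptor genes Tnfrsf22 and Tnfrsf23 had log2 fold changes of 1.58 (SE 0.36, adjusted p = 0.212) and 0.93 (SE 0.24, adjusted p = 0.227). The members Cdkn1c and Kcnq1ot1 of that locus had -1.83 (SE 0.76) and -0.30 (SE 0.34), with overlapping groups. Near H19, the muscle gene Tnnt3 had 2.75 (SE 0.66, adjusted p = 0.216). The skeletal muscle marker sum that was higher in every H3K9M library contains Tnnt3, so they are not separate observations. Tnnt3 read 10.2, 10.8 and 5.97 CPM in H3K9M and 0.281, 2.08 and 1.65 CPM in H3WT. It passed the filter on low counts through its H3K9M libraries, so its place among the 6 supports nothing. Lsp1, also near H19, had 0.64 (SE 0.23, adjusted p = 0.328). Adam23, beside Zdbf2, was the gene lower in H3K9M, at -1.52 (SE 0.62, adjusted p = 0.406), with H3WT replicate 2 at 25.4 CPM against 151 and 102 CPM in the other H3WT libraries, and without that library it was -1.96 (edgeR adjusted p = 0.0345).

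Of 17 imprinted genes outside the members, 13 were tested, with 8 higher, 5 lower and none past an adjusted p of 0.05 by edgeR. At an unadjusted p under 0.05, Snurf and H13 were higher and Jade1 lower, 3 of 13 (23.1%) against 12.2% of all genes, in a list likewise chosen with earlier results known. Snurf had the counts of Snrpn, so it adds no observation of its own. H13, the signal peptide peptidase gene, read 304, 338 and 289 CPM in H3K9M and 246, 260.1 and 227 CPM in H3WT, with no overlap (log2 fold change 0.35, SE 0.12, adjusted p = 0.324).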
